A study of Mus musculus musculus x Mus musculus castaneus with 7 samples.

Results

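The comparison set the Day 15 library against the Day 13 library of a reprogramming series, both made from cells sorted for SSEA1, and took the Day 15 log2 value minus the Day 13 value of each gene. Genes were kept where the higher of the 2 log2 values reached 6, close to 64 normalized counts. Of the 24393 genes in the table, 14615 were kept and 9778 were not. Of those kept, 12253 reached 6 in both libraries, 1231 only at Day 15 and 1131 only at Day 13. The series holds 7 RNA sequencing libraries of female mouse cells from a musculus × castaneus cross, 1 for each of 7 groups. The 4 sorted intermediates of Days 8, 10, 13 and 15 came from embryonic fibroblasts carrying lentiviral M2rtTA and a doxycycline-inducible cassette of Oct4, Sox2, Klf4 and c-Myc. They were kept in serum medium with LIF, 2 µg/ml doxycycline and 50 µg/ml ascorbic acid until collection, so by their labels Day 13 and Day 15 cells shared vector, drug and sort and differed in time. Fibroblasts had been sorted for which X chromosome silenced an X-GFP transgene, and the labels do not say which of these populations a library came from. The Day 2 library has no SSEA1 sort in its label; the iPSCs, from picked colonies without doxycycline and ascorbic acid, and the ESCs were sorted for SSEA1 and GFP. With 1 library a group there was no replicate check, no test was run, and every difference is that of 2 libraries.

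Reprogramming by these 4 factors takes fibroblasts through a loss of mesenchymal genes and a gain of epithelial genes before the endogenous pluripotency network is switched on, and in female cells the inactive X chromosome is reactivated late. SSEA1 is a fucosylated surface glycan of mouse pluripotent cells that also marks cells still on the way to that state. A sort for it enriches reprogramming cells without requiring a finished iPSC. In bulk RNA, fewer cells of a type and less RNA per cell cannot be told apart.

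The Day 13 library held 34687308 reads assigned to genes and the Day 15 library 57021069, so 3 reads, the floor used for a gene without reads, were worth 2.93 and 1.74 normalized counts. Mitochondrial transcripts took 2.22% of the reads at Day 13 and 5.61% at Day 15. Both libraries held the defining markers of pluripotent cells, and the 8 markers summed to 110248 normalized counts at Day 13 and 144475 at Day 15, against 317900 in iPSCs. Markers of other cell types were read too. The 11 fibroblast markers summed to 28417 at Day 13 and 69101 at Day 15, and the 11 macrophage markers to 35777 and 2692. Both libraries thus held markers of several cell types, and their part in the results below was not tested. Fut9, which makes the SSEA1 epitope in mouse stem cells, had normalized counts of 162 at Day 13 and 355 at Day 15.

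A property of the Day 15 library bears on every gene that is high in iPSCs. Of the 5321 genes whose normalized count in the iPSC library had a log2 of at least 10, none was below 30% of the iPSC level at Day 15, and the lowest, Psma8, stood at 31.3%. The same genes reached down to 0 at Day 13, where 164 of them (3.08%) were below 30%, and in ESCs 46 were. Of the 9196 genes with a log2 of at least 8 in iPSCs, 7 were below 30% at Day 15 and 379 at Day 13. A set of 41 genes had a log2 of at least 8 in iPSCs and under 10% of the iPSC level at each of Days 8, 10 and 13. At Day 15 none of these was under 30% of the iPSC level, 28 lay at 30% to 45%, and their median was 39.96%. Values by library are given below in the order Day 2, 8, 10, 13 and 15. Stk33, a kinase gene, had 0, 0, 0, 0 and 571 normalized counts over the 5 time points, 1774 in iPSCs and 304 in ESCs. Mras, a Ras-family GTPase gene, had 759.7, 406, 66.8, 10.7 and 474 normalized counts over the 5 time points, 1439 in iPSCs and 1379 in ESCs. Stk33 and Mras thus stood at 32.2% and 33.0% of their iPSC levels. What set this common lower bound was not tested.

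**Figure D1:**
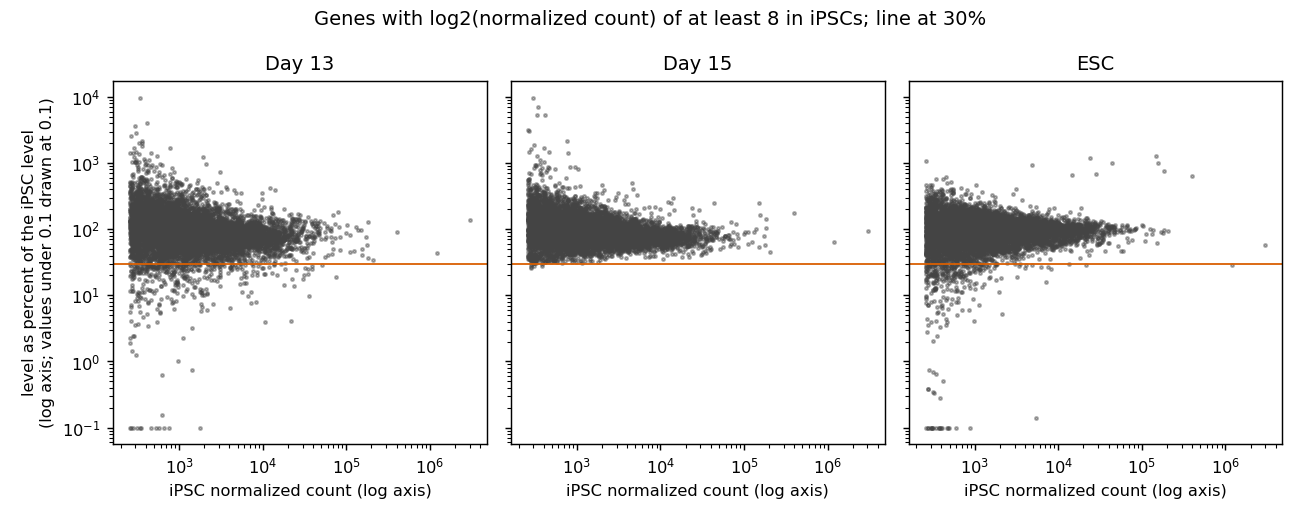
Level of each gene whose iPSC normalized count has a log2 of at least 8, as a percent of its iPSC level (log axis), against its iPSC level in normalized counts (log axis), for the Day 13, Day 15 and ESC libraries; each point is 1 gene and the line marks 30%. The Day 15 points end near the line, with 7 of 9196 genes below it, while 379 lie below it at Day 13.

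Each result was therefore also computed from a Day 15 value without the iPSC part, a setting chosen after the data were seen. For every gene 31.3% of the iPSC value, the lowest share met among the 5321 genes, was taken off the Day 15 value. A negative result was set to 0. What was left was divided by 1 minus that share, which scales a gene without iPSC reads up 1.45-fold. These values mark which differences depend on the iPSC level. They are not a measured composition. The setting raises the Day 15 value of any gene that is lower in iPSCs than at Day 15. A larger fold or median under it is therefore not read as a larger increase.

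Over the 14615 genes kept, 930 (6.36%) were at least 4-fold higher at Day 15 and 882 (6.03%) at least 4-fold lower. At 2-fold, the threshold used for the members of gene lists, 2137 (14.6%) were higher and 1911 (13.1%) lower. Among the 12253 genes that reached 6 in both libraries, 1065 (8.69%) were 2-fold higher and 959 (7.83%) 2-fold lower. A list member kept through 1 library alone is high there by the filter itself, so counts over the members kept are descriptions. Counts over the members that reached 6 in both are given for part of the lists where the 2 differ. Each list count below is to be set beside the 2-fold shares of all genes, 14.6% higher and 13.1% lower. For members that reached 6 in both libraries these shares are 8.69% and 7.83%. The median difference was 0.02 on the log2 scale, and the quartiles were -0.46 and 0.52. Without the iPSC part, 1100 (7.53%) were 4-fold higher and 1116 (7.64%) 4-fold lower. At 2-fold these counts were 2373 (16.2%) and 2266 (15.5%). The larger differences were mostly in genes with low values: of the 5546 genes with a mean log2 value of at least 10 over both libraries, 93.8% differed by less than 2-fold.

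Most genes higher at Day 15 were below 6 in iPSCs. Of the 930, 357 (38.4%) reached 6 on the log2 scale in iPSCs, against 81.1% of all genes kept, and 338 had no iPSC read. The share was smaller still among the 882 genes at least 4-fold lower, of which 207 (23.5%) reached 6 in iPSCs. A low iPSC value was thus shared by both directions. The Day 15 library was the highest of the 7 for 500 of the 930 (53.8%), against 11.0% of all genes kept. The call itself raises this share, since it asks for a Day 15 value far above that of Day 13. A gene counted as higher also cannot have its highest value at Day 13. Among the 357 genes that reached 6 in iPSCs, the gain from Day 13 to Day 15 was at least 26.2% of the iPSC level, its median was 92.9% and 169 gains exceeded the iPSC level. A gene kept through 1 library alone has a low value in the other by construction, and 162 of the 930 and 186 of the 882 genes reached 6 in both. Taking off the iPSC part left 296 of the 357 and 869 of the 930 at least 4-fold higher. Of the 882 genes lower at Day 15, 345 (39.1%) were highest at Day 13, against 9.96% of all genes kept, a share that the call likewise raises. At Day 8 282 (32.0%) were highest, against 19.5% of all genes kept.

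**Figure D2:**
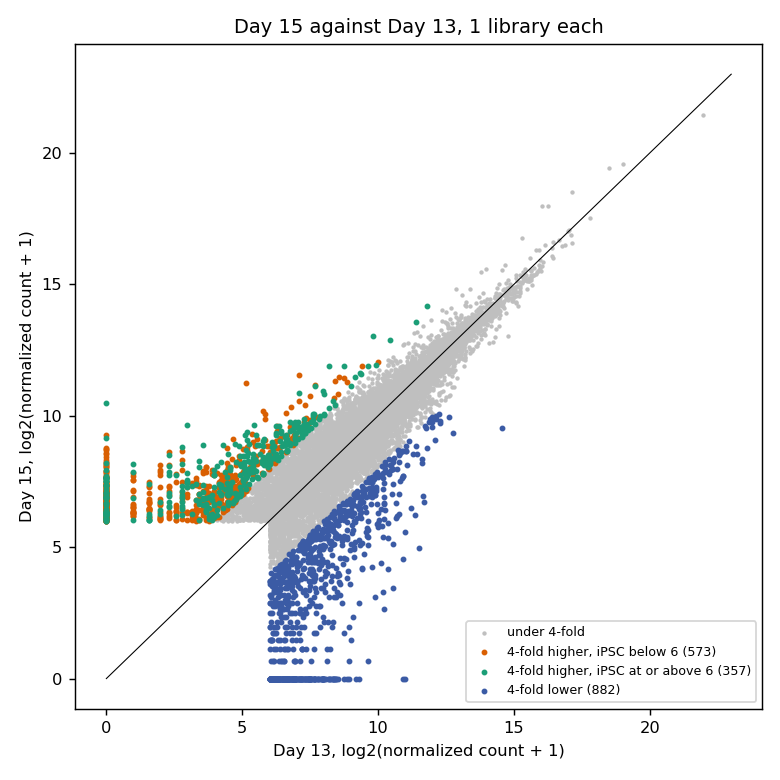
Day 15 against Day 13 values of the 14615 genes kept, both as log2(normalized count + 1), 1 library each; the line marks equal values. Of the 930 genes at least 4-fold higher, 573 (orange) were below 6 in iPSCs and 357 (green) at or above it; 882 (blue) were at least 4-fold lower.

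Among the 15 genes named for the largest folds higher at Day 15, Scube1, which encodes a secreted protein of the SCUBE family, came first. Its values were 0, 0, 0, 0 and 1451 normalized counts over the 5 time points, 112 in iPSCs and 0 in ESCs, so it was at least 495-fold higher at Day 15. The serine protease gene Tmprss2 was at least 211-fold higher, with 0 reads in each of the other 6 libraries. The vessel ligand gene Angpt1 was at least 149-fold higher, the collagen-binding integrin gene Itga1 at least 146-fold higher and the calcium sensor gene Ncald at least 130.4-fold higher. The choline transporter-like gene Slc44a5 was at least 108-fold higher, the tetraspanin gene Tspan11 at least 99.5-fold higher and the homeobox gene Nkx2-3 at least 95.7-fold higher. All 7 had no read at Day 13. Itga1 and Ncald had 11.7 normalized counts each in iPSCs and the other 5 had no iPSC read. Itga1 and Tspan11 were not highest at Day 15. Itga1 had 385, 870 and 67.6 normalized counts at Days 2, 8 and 10, against 428 at Day 15. Tspan11 had 957 at Day 2, 291 at Day 15 and 147 in ESCs. Angpt1, Ncald, Slc44a5 and Nkx2-3 were also read before Day 13, at values below those of Day 15. Igdcc3, an immunoglobulin-superfamily gene of the embryo, went from 6.84 to 812 normalized counts and was 119-fold higher (57.5 to 296); the range after a fold is its 95% interval from the read counts. Fut4, which encodes another enzyme able to make the SSEA1 epitope, had 141, 0, 25.6, 0 and 376 normalized counts over the 5 time points, 0 in iPSCs and 0 in ESCs. It was therefore at least 128-fold higher than at Day 13, with no read in either pluripotent line.

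Stk33, Msc and Slc30a2 also belonged to the 15 largest folds, and all 3 had higher values in iPSCs than at Day 15. The transcription factor gene Msc had no read at Day 13, 296 normalized counts at Day 15 and 759 in iPSCs. The zinc transporter gene Slc30a2 had 1 read at Day 13 and was 289-fold higher (51.7 to 11456), with 630.2 in iPSCs. The Day 15 values without the iPSC part were 23.8 for Stk33, 85.6 for Msc and 125 for Slc30a2.

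Several genes of Hedgehog signalling had higher values at Day 15. They were looked up because of Scube1, and the list was drawn up after its values were seen, so its counts are not evidence of a direction. Sonic hedgehog is a secreted, lipid-modified signal; Scube proteins help release it from the producing cell, Ptch1 is its receptor and, with Hhip and Gli1, a target gene. Of 17 members kept, Scube1 included, 6 were kept through Day 15 alone. Of the 11 that reached 6 in both libraries, 3 were 2-fold higher and 1 was lower. Shh had 0, 0, 0, 34.2 and 2416 normalized counts over the 5 time points, 0 in iPSCs and 0 in ESCs. It was thus read in 2 of the 7 libraries and was 70.7-fold higher (50.7 to 102) at Day 15. Scube2 went from 5.86 to 319.9 and was 54.6-fold higher (24.9 to 149), with no read elsewhere. The receptor gene Ptch1 went from 1518 to 3903, 2.57-fold higher (2.43 to 2.72), and its Day 15 value was the highest of the 7. Among the co-receptors, Boc was 7.35-fold higher (5.69 to 9.63), Cdon 2.96-fold higher (2.60 to 3.38) and Gas1 2.88-fold higher (2.55 to 3.27). Hhip, which encodes a decoy receptor, had 2 reads at Day 13 and was 87.4-fold higher (24.0 to 725), with 239 in iPSCs. Hhat, which encodes the acyltransferase that modifies the ligand, was 5.97-fold higher (4.31 to 8.49). The target genes Ptch1 and Gli1 differed in opposite directions: Gli1 went from 348 to 151 and was 2.30-fold lower (1.96 to 2.71). Gli2 and Gli3 differed by less than 2-fold, as did Smo, Sufu, Disp1 and Scube3.

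Several transcription factors of the anterior neural plate, forebrain and hypothalamus likewise had higher values at Day 15, and this list too was made after its values were seen. Of its 21 members, 15 were kept, 10 of them through Day 15 alone, so no count over those kept is read as a result. Of the 5 that reached 6 in both libraries, 3 were 2-fold higher. Six3, which specifies the forebrain, had 0, 0, 0, 11.7 and 265 normalized counts over the 5 time points, 2.34 in iPSCs and 0 in ESCs. Hesx1, needed for the forebrain and pituitary, had 0, 0, 62.1, 290.1 and 1273 normalized counts over the 5 time points, 879 in iPSCs and 192 in ESCs. Hesx1 was 4.39-fold higher (3.89 to 4.97), and without the iPSC part it was still 5.01-fold higher. Otx1 went from 70.3 to 489 normalized counts and was 6.95-fold higher (5.46 to 8.97), with no read in iPSCs or ESCs. Its relative Otx2, also active in epiblast cells, was nearly level, at 3832 and 4414. Dmbx1, a homeobox gene of the brain, was at least 141-fold higher and Isl1 at least 73.1-fold higher. Nkx2-1, a hypothalamic factor, had 2 reads at Day 13 and was 80.2-fold higher (22.0 to 666). Pax6 was 5.35-fold higher (3.66 to 8.08), Fezf2 5.69-fold higher (3.93 to 8.53), Irx3 5.50-fold higher (4.37 to 7.01) and Sox21 10.3-fold higher (7.67 to 14.1). Lhx5 differed by less than 2-fold. Pomc, the pituitary and hypothalamic hormone precursor, was looked up for the same reason and went from 109 to 1288. The early neural marker Sox1 had 50.8 normalized counts at Day 13 and 16.8 at Day 15, and was not kept. In the list of neural genes 5 of 10 members kept were 2-fold higher and 2 lower, and of the 5 that reached 6 in both libraries 1 was higher and 1 lower.

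Retinoic acid genes, another list made after its values were seen, were mixed. Retinoic acid is made from retinol by Rdh10 and the Aldh1a enzymes, is degraded by the Cyp26 enzymes and acts through nuclear receptors. Of 18 members kept, 6 were 2-fold higher and 3 lower, and of the 14 that reached 6 in both libraries 3 and 2. Cyp26a1 had 0, 370.5, 355, 1027 and 4233 normalized counts over the 5 time points, 0 in iPSCs and 0 in ESCs, and was 4.12-fold higher (3.86 to 4.40) at Day 15. Crabp1, which binds retinoic acid in the cytoplasm, went from 294 to 3826 and was 13.0-fold higher (11.6 to 14.7). Cyp26c1 was 3.51-fold higher (2.56 to 4.91) and the retinol transporter gene Stra6 2.44-fold higher (2.04 to 2.95). The receptor gene Rarb, itself a retinoic acid target, went from 0 reads to 167 normalized counts, while Rarg was 2.80-fold lower (2.60 to 3.02). Of the enzymes that make retinoic acid, Aldh1a1 went from 429 to 0 and was at least 246-fold lower. Aldh1a2 went from 0 to 96.9 and was at least 33.1-fold higher. Dhrs3, which turns the retinal intermediate back to retinol, was 3.07-fold lower (2.89 to 3.26). Rdh10, Aldh1a3, Crabp2 and Rbp4 differed by less than 2-fold.

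**Figure D3:**
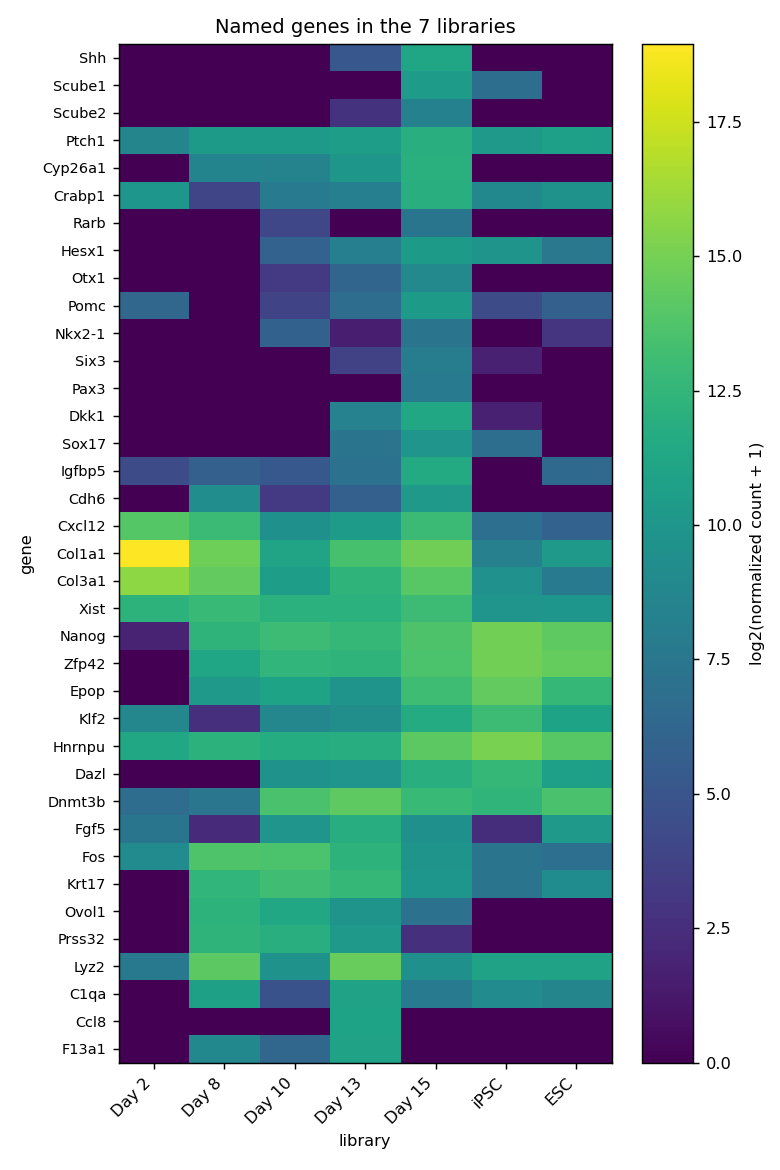
Values of 37 genes named in the text in the 7 libraries (columns), as log2(normalized count + 1) by colour. Shh, Scube2 and Otx1 are bright at Day 15 and dark in iPSCs and ESCs, Ccl8 is bright at Day 13 alone, and Nanog and Zfp42 are brightest in iPSCs.

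Fibroblast and mesenchymal genes were higher at Day 15, against the direction of the course as a whole. Of 47 members kept, 32 were 2-fold higher and 2 lower, with a median of 1.33. Of the 41 that reached 6 in both libraries, 27 were higher and 1 was lower. With the iPSC part taken off, 33 were higher and the median was 1.82. Col1a1, the main chain of type I collagen, had 505292, 28413, 2146, 10799.5 and 29317 normalized counts over the 5 time points, 299.9 in iPSCs and 1209 in ESCs. The Day 15 level lay above those of Days 10 and 13 and far below that of Day 2, with iPSCs and ESCs lower still. Col1a1 was 2.71-fold higher (2.66 to 2.77), Col1a2 2.66-fold higher (2.59 to 2.73) and Col3a1 3.20-fold higher (3.10 to 3.29). Vim, the intermediate filament gene of mesenchymal cells, was 2.82-fold higher (2.67 to 2.98), and Lox, which cross-links collagen, 3.81-fold higher (3.54 to 4.10). Among the largest differences in the list were those of Axl, a receptor kinase that went from 0 reads to 199.7 normalized counts, and Col6a2, which was 5.65-fold higher (5.23 to 6.12). Axl had 28410, 508 and 207 normalized counts at Days 2, 8 and 10, so its Day 15 value was near that of Day 10. Tbx15, a T-box factor of limb and skin mesenchyme, went the other way, from 372 to 0, and Dcn was 3.05-fold lower (2.90 to 3.22). Several mesenchymal transcription factor genes differed by less than 2-fold: Prrx1 stood at 171 and 145, Snai1 at 491 and 462, and Snai2 at 81.1 and 85.3. Twist1 and Twist2 were not kept. Among the 11 markers of the panel 7 were 2-fold higher, 1 was lower and none was at 0 in either library.

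Other genes with little expression in iPSCs were also higher; the 4 named here were chosen after their values were seen. Igfbp5, an IGF-binding protein gene, went from 134 to 3039.6 and was 22.7-fold higher (19.2 to 27.1). The cadherin gene Cdh6 was 21.7-fold higher (16.6 to 28.9). Cxcl12, the stromal chemokine, went from 1405 to 7609 and was 5.41-fold higher (5.13 to 5.72). Dkk1, a secreted Wnt inhibitor, had 0, 0, 0, 343 and 2568 normalized counts over the 5 time points, 2.34 in iPSCs and 0 in ESCs.

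In the Wnt list 9 of 27 members kept were 2-fold higher and 2 lower, with a median of 0.37. Among the 24 that reached 6 in both libraries, 8 were higher and 1 was lower, against 8.69% and 7.83% of all such genes. The secreted inhibitor Notum was 3.61-fold higher (2.88 to 4.57). Dkk1, Dkk3, Sfrp1 and Sfrp2, inhibitors too, were also among the 9, while the inhibitor genes Sfrp5, Nkd1 and Nkd2 differed by 0.93, 0.25 and -0.07 on the log2 scale and by -0.41, 0.65 and -1.27 without the iPSC part. Wnt5a, a ligand of the non-canonical pathway, went from 3.91 to 388 and was 99.4-fold higher (38.6 to 366). Its values at Days 2 and 8 were 5464 and 387. Wnt3, a ligand of the primitive streak, went from 198 to 13.4 and was 14.8-fold lower (9.63 to 24.0). The canonical target gene Axin2 was nearly level, at 124 and 106, and Lef1 went from 2213 to 1192. In the TGF-beta, Nodal and BMP list 5 of 25 were higher and 2 lower, and without the iPSC part 10 were higher and 2 lower. Among its 21 members that reached 6 in both libraries, 4 were higher and 1 was lower, against the same 8.69% and 7.83%. The BMP antagonist gene Nog had no read at Day 13 and 200.3 normalized counts at Day 15, and Tgfb2 was 8.30-fold higher (6.66 to 10.5). Id3 was 3.43-fold higher (3.27 to 3.60) and Id4 3.04-fold lower (2.37 to 3.90), with Id1 and Id2 nearly level. Like Wnt5a, Tgfb2 and Id3 were highest at Day 2, at 7437 and 29371. The fibroblast markers, also highest at Day 2, moved with these genes, and their part was not tested.

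Of 15 primitive endoderm members kept, 9 were 2-fold higher and 1 lower, with a median of 1.18 and of 1.35 without the iPSC part. Of the 11 that reached 6 in both libraries, 5 were higher and 1 was lower. The counts of the whole list summed to 56339 at Day 13 and 51944 at Day 15. Pdgfra and Sparc, among the 9, are also in the fibroblast list, and the matrix genes Col4a1 and Col4a2, also among them, are not restricted to endoderm. The fibroblast markers moved with this list, from 28417 to 69101 in sum, and their part was not tested. Sox17, an endoderm factor, had 0, 0, 0, 152 and 951 normalized counts over the 5 time points, 112 in iPSCs and 0 in ESCs, and was 6.24-fold higher (5.30 to 7.41). Sox7 was 4.20-fold higher (3.10 to 5.80), Gata4 2.29-fold higher (1.98 to 2.66) and the type IV collagen gene Col4a2 2.93-fold higher (2.74 to 3.13). The receptor genes Pdgfra and Pth1r were 3.47-fold higher (2.24 to 5.59) and 3.44-fold higher (2.37 to 5.14). Dab2, also expressed in macrophages, was 3.46-fold lower (3.26 to 3.67). The 5 primitive endoderm markers summed to 457 normalized counts at Day 13 and 1772 at Day 15. Gata6, another defining marker, had no read at Day 13 and was not kept. Primitive streak genes split, with 4 of 15 higher and 3 lower. Among the 10 that reached 6 in both libraries, 2 were higher and 1 was lower. Cdx2, a caudal and trophoblast factor, went from 0 reads to 265 normalized counts and Gsc was 5.70-fold higher (4.51 to 7.28). Mesp2 was 4.85-fold lower (3.49 to 6.83). Cer1, a Nodal antagonist gene, went from 1406 to 2181.

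Imprinted genes, expressed from 1 parental copy, were higher in 11 of 27 members kept and lower in 1, with a median of 0.83 and of 1.31 without the iPSC part. Of the 25 that reached 6 in both libraries, 9 were higher and 1 was lower, against 8.69% and 7.83% of all such genes. Plagl1 was 4.89-fold higher (4.17 to 5.76), the neuronal gene Nnat 4.30-fold higher (3.93 to 4.72) and Magel2 3.66-fold higher (2.51 to 5.50). H19, a long non-coding RNA, went from 3666 to 8233 and its neighbour Igf2 from 286 to 661. Cdkn1c, a cell cycle inhibitor, was 3.32-fold higher (2.94 to 3.76). Phlda2, a placental growth regulator, was the exception, at 5.10-fold lower (4.69 to 5.57). Counts were not split by allele.

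Macrophage and leukocyte genes were lower at Day 15. Of 29 members kept, 25 were 2-fold lower and none higher, against 13.1% and 14.6% of all genes, and the median was -3.29. Of these, 13 were kept through Day 13 alone, and of the 16 that reached 6 in both libraries 12 were lower, with a median of -2.65. The lysozyme gene Lyz2 had 197, 18221, 850.4, 24224 and 746 normalized counts over the 5 time points, 1949 in iPSCs and 1915 in ESCs. It was high at Days 8 and 13 and low at Days 10 and 15, and was 32.5-fold lower (30.7 to 34.4) at Day 15. C1qa, a subunit of complement C1q, had 0, 1737, 26.4, 1941 and 207 normalized counts over the 5 time points, 569 in iPSCs and 396 in ESCs, with the same high and low libraries. Ptprc, which encodes the leukocyte antigen CD45, was 9.02-fold lower (6.38 to 13.0). The mannose receptor gene Mrc1 was 96.3-fold lower (73.2 to 129). Lyz1, a copy of Lyz2 that can share reads with it, was 151-fold lower (94.3 to 261). The chemokine gene Ccl8 had 0, 0, 0, 2019 and 0 normalized counts over the 5 time points, 0 in iPSCs and 0 in ESCs, so it was at least 1159-fold lower and was read in the Day 13 library alone. Ccl3 and Ccl4, 2 further chemokine genes, had 174 and 172 normalized counts at Day 13 and none at Day 15. Csf1r, the receptor for the macrophage growth factor, was 1.70-fold lower (1.59 to 1.82) and so was not 2-fold lower, and Laptm5, Coro1a and Lcp1 were not either. The sums of the 11 macrophage markers were 299, 41415, 1469, 35777 and 2692 over the 5 time points and 4501 in iPSCs. None was at 0 at Day 15. The median without the iPSC part was -6.52. For members such as Ptprc the part taken off exceeded the Day 15 value and the result was set to 0. This median is therefore not read as a larger decrease.

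Of the 15 genes with the largest fold lower, several are known from the same cells. F13a1, the coagulation factor XIII subunit gene of macrophages, went from 1914 to 0 and was at least 1099-fold lower. The myeloid lectin genes Clec4n and Clec4d had 782 and 493 normalized counts at Day 13. Clec4n kept 1 read at Day 15 and was 1348-fold lower (241 to 53296), and Clec4d had none and was at least 283-fold lower. Cd84 was at least 365-fold lower and Ms4a4a at least 266-fold lower, and both had 0 reads at Day 15. Plau, the urokinase gene, was at least 333-fold lower. Its highest value, 3885, was at Day 2, where the 11 macrophage markers summed to 299.

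The other 8 of these 15 had higher values at Day 8 or Day 10 than at Day 13 with the exception of Slurp1. Prss32, a serine protease gene, had 0, 5074, 3741, 1179.9 and 5.22 normalized counts over the 5 time points, 0 in iPSCs and 0 in ESCs, a decline at each step from Day 8, and was 226-fold lower (119 to 495). Mroh4 kept 1 read at Day 15, after 2543, 1399 and 482 normalized counts on Days 8, 10 and 13, and was 829-fold lower (148 to 32828). Lypd6b kept 3 reads and was 292-fold lower (99.2 to 1419). Aldh1a1, Tbx15, Grxcr2, Slurp1 and the placental gene Plac1 had no read at Day 15. Grxcr2 was at least 201-fold lower, Plac1 at least 193-fold lower, and Slurp1, a secreted keratinocyte protein gene, at least 201-fold lower.

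Epidermal and epithelial genes were lower. Of 16 epidermal members kept, 10 were 2-fold lower and 2 higher, with a median of -1.19, and of the 10 that reached 6 in both libraries 6 were lower. Krt17, a keratin of stressed and embryonic epidermis, had 0, 5721, 9141, 6317 and 995 normalized counts over the 5 time points, 157 in iPSCs and 603 in ESCs, and was 6.35-fold lower (6.02 to 6.70). Krt6b was 131-fold lower (63.4 to 329), and the cornified envelope gene Ivl went from 147 to 0. Krtdap was 8.12-fold lower (7.51 to 8.80). Krt14 and Sprr1a differed by less than 2-fold. Trp63, the master factor of the epidermis, went against the list, with no read at Day 13 and 90.0 normalized counts at Day 15. The desmosomal gene Dsc3 did so too, from 0 to 115, but it had 154 at Day 10. Of 28 epithelial members 11 were lower and 1 was higher, with a median of -0.77, and without the iPSC part 8 were lower with a median of -0.49. Ovol1 was 6.55-fold lower (5.67 to 7.59), Tjp3 4.55-fold lower (4.19 to 4.94) and Grhl1 3.78-fold lower (3.32 to 4.30). Ovol2, a relative of Ovol1, went from 5.86 to 105. The adhesion genes Cdh1 (E-cadherin) and Epcam differed by less than 2-fold, Cdh1 going from 9127 to 6334 and Epcam from 15143 to 9059. Krt18 went from 16377 to 22105 and Krt8, its partner, from 33275 to 23778.

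Immediate early genes, switched on within minutes by growth factors and stress, were lower in 6 of 18 members kept and higher in 1. Of all genes kept, 13.1% were lower and 14.6% higher. The median of this list was -0.83, and -0.49 without the iPSC part. Fos had 549, 13912, 12531, 4955 and 881 normalized counts over the 5 time points, 152 in iPSCs and 123 in ESCs. It was lower at each step from Day 8 and was 5.63-fold lower (5.31 to 5.96) at Day 15. Nr4a1 was 4.14-fold lower (3.91 to 4.38), Egr1 3.58-fold lower (3.43 to 3.74) and Atf3 3.02-fold lower (2.69 to 3.40), while Fosl1 was 2.38-fold higher (1.87 to 3.08). In the list of MAPK feedback and target genes 5 of 17 were lower and 1 higher. Of the vector's factors, Klf4 went from 1699 to 891 and Myc from 3048 to 1460.01, 2.09-fold lower (1.98 to 2.20). Klf4 and Myc reads of the cassette and of the endogenous genes are counted together.

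Antigen presentation genes were lower in 11 of 17 members kept and higher in none, with a median of -1.29, and in 8 of the 13 that reached 6 in both libraries. Nlrc5, the activator of class I genes, went from 146 to 0, Tap1 was 6.29-fold lower (5.43 to 7.31) and Cd74, the class II chaperone also found in macrophages, 49.6-fold lower (18.9 to 185). B2m was 2.13-fold lower (2.04 to 2.22), Tapbp 3.01-fold lower (2.86 to 3.16) and H2-D1 2.70-fold lower (2.58 to 2.82). H2-K1 differed by less than 2-fold. Interferon response genes were lower in 9 of 26, but 11 of these 26 were kept through Day 13 alone, and of the 15 that reached 6 in both libraries 2 were lower. Gbp3 went from 141 to 0 and Oasl1 from 65.4 to 0, Mx1 was 46.3-fold lower (17.6 to 173) and Ifit2 was 15.9-fold lower (8.53 to 32.8). Macrophage markers moved with both lists, from 35777 to 2692 normalized counts in sum, and their part in these differences was not tested.

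Pluripotency genes were higher at Day 15 in part, and most of these differences were gone without the iPSC part. Of 46 members kept, 11 were 2-fold higher and none lower, with a median of 0.44. With the iPSC part taken off, 1 was higher and 4 were lower, and the median was -0.33. Nanog had 2.74, 5019, 8155, 6392 and 13106 normalized counts over the 5 time points, 31226 in iPSCs and 19105 in ESCs. It was 2.05-fold higher (1.99 to 2.11) at Day 15, and without the iPSC part the difference was -0.39 on the log2 scale. Zfp42 (Rex1) had 0, 2363, 5728, 5249.8 and 12478 normalized counts over the 5 time points, 30232 in iPSCs and 22394 in ESCs. Its difference of 1.25 became -0.25. Esrrb went from 1733 to 3397, with 8523 in iPSCs, Dppa3 from 669 to 1242 and Sox2 from 1057 to 1862. Prdm14, a naive factor with a role in X reactivation, was nearly level at 876 and 922, and Pou5f1 (Oct4) went from 15943 to 13056. Sox2 and Pou5f1 are also factors of the cassette, whose reads are counted together with those of the endogenous genes. The largest differences were those of Epop, Fgf17, Tbx3 and Klf2. Epop, a Polycomb-associated chromatin factor gene, had 0, 1173, 2002, 899.6 and 8347 normalized counts over the 5 time points, 21716 in iPSCs and 6186 in ESCs. It was 9.28-fold higher (8.68 to 9.93), and 2.52-fold higher without the iPSC part. Klf2 was 4.92-fold higher (4.54 to 5.34), Tbx3 4.99-fold higher (4.57 to 5.45) and Fgf17 6.40-fold higher (5.26 to 7.86), and without the iPSC part their folds were 1.40-fold, 1.38-fold and 1.56-fold. Lin28a, Sall1 and Trim71, which are not restricted to naive cells, kept differences of 0.56, 0.53 and 0.68 without it, from 0.43, 0.48 and 0.82.

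Formative and primed genes, those of the epiblast on its way to lineage commitment, were lower in 5 of 18 and higher in 2. Of all genes kept, 13.1% were lower and 14.6% higher. The median of this list was -0.40. Without the iPSC part the median was 0.03, but 6 members were lower and 2 higher. Fgf5, the usual marker of this state, had 164, 4.08, 936, 3496 and 736 normalized counts over the 5 time points, 4.69 in iPSCs and 1135 in ESCs, and was 4.75-fold lower (4.45 to 5.07). Dnmt3b, a de novo DNA methyltransferase, had 107, 172, 11484, 19399.5 and 7188 normalized counts over the 5 time points, 5449 in iPSCs and 11622 in ESCs, and was 2.70-fold lower (2.64 to 2.76). Dnmt3a went from 12551 to 6509 and Zic2 was 2.79-fold lower (2.15 to 3.65). Sall2 was 5.69-fold higher (4.82 to 6.75) and Sox4 2.96-fold higher (2.60 to 3.38). Among all 17 DNA methylation genes kept, 1 was higher and 2 were lower. These 3 were Gadd45a, at 3.97-fold higher (3.61 to 4.37), Apobec1, at 3.20-fold lower (2.70 to 3.79), and Dnmt3b; Dnmt1, Uhrf1, Tet1 and Tet2 differed by less than 2-fold.

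**Figure D4:**
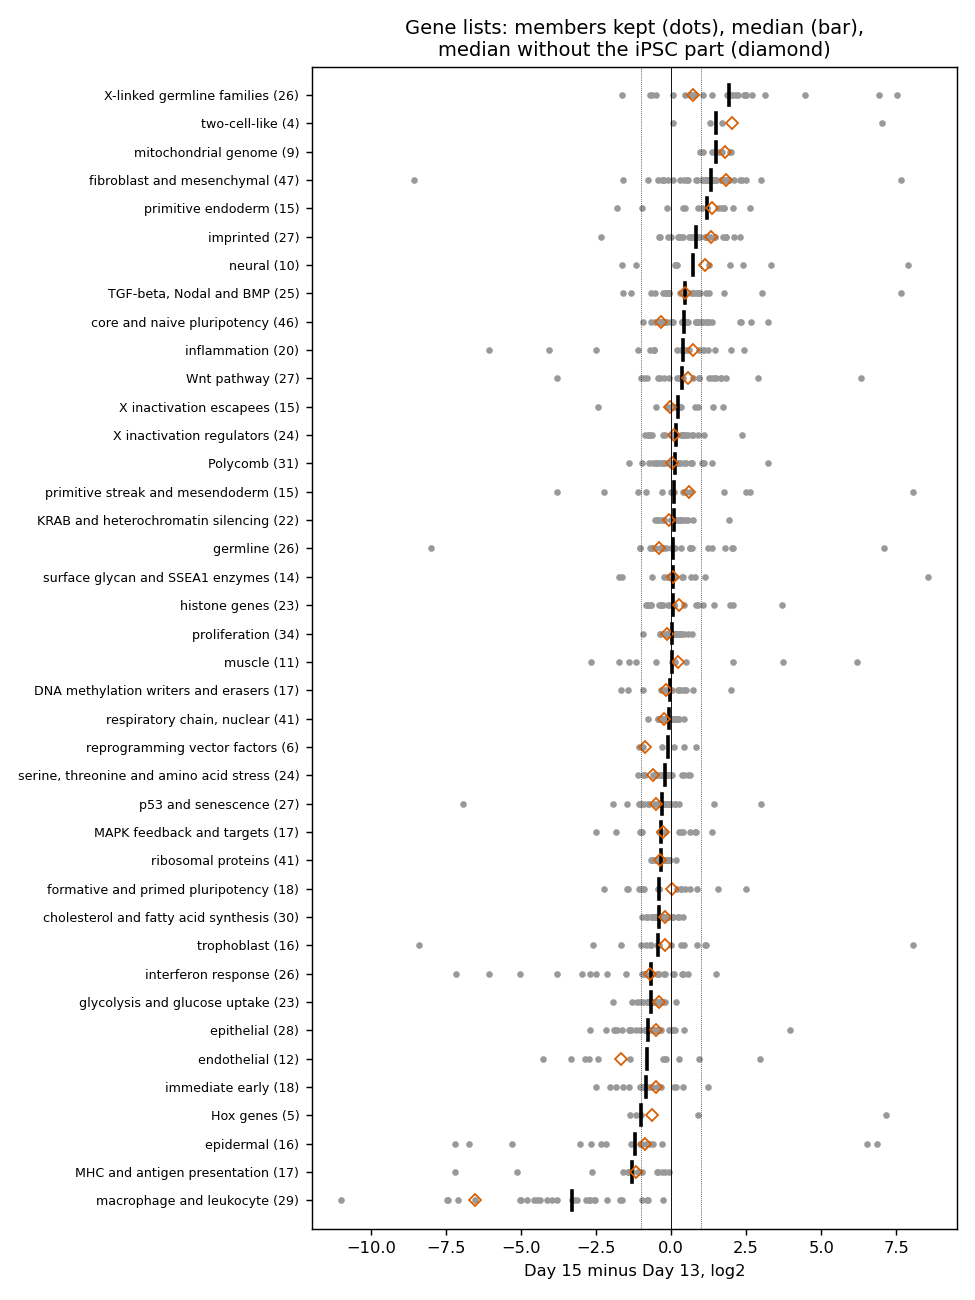
Day 15 minus Day 13 differences (log2) of the members kept of 40 gene lists, ordered by median; grey dots are genes, the bar is the median, the diamond the median without the iPSC part, dotted lines mark 2-fold, and the number kept is in brackets. Macrophage genes have the lowest median (-3.29), and the pluripotency median changes from 0.44 to -0.33.

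Germline genes were mixed, with 6 of 26 higher and 3 lower, against 14.6% and 13.1% of all genes kept. Their median was 0.06. Among the 22 that reached 6 in both libraries, 4 were higher and 1 was lower. With the iPSC part taken off 5 of the 26 were higher and 6 lower, and the median was -0.40. Dazl, an RNA-binding protein of germ cells, had 0, 0, 806, 959 and 3877 normalized counts over the 5 time points, 6269 in iPSCs and 1670.2 in ESCs, was 4.04-fold higher (3.78 to 4.33) and stayed 2.91-fold higher without the iPSC part. Piwil1, a Piwi protein gene, went from 0 to 134 and Asz1 was 4.30-fold higher (3.01 to 6.31), while Tdrd1 went from 251 to 0. Of the X-linked germline families 16 of 26 members kept were higher and 1 was lower, with a median of 1.94, but 9 of the 26 were kept through Day 15 alone. Of the 15 that reached 6 in both libraries, 8 were higher and none lower, with a median of 1.05. Without the iPSC part 11 of the 26 were higher, 2 were lower and the median was 0.73. Xlr3a had 0, 100.4, 730.03, 655 and 3046 normalized counts over the 5 time points, 6609 in iPSCs and 6247 in ESCs. Magea4 and Magea8 went from 0 to 183 and 119, Mageb4 from 1.95 to 64.4 and Rhox2a was 9.28-fold higher (5.76 to 15.9). Magea8 had 48.9 normalized counts at Day 10. Nxf2, an mRNA export factor gene, was 4.19-fold higher (3.65 to 4.84) and its Day 15 value was the highest of the 7. Rhox5 went from 3825 to 6548. Tex13b was 3.11-fold lower (2.38 to 4.09). Reads of near-identical members of the Xlr, Rhox and Magea families may align to more than 1 of them, which makes these values uncertain.

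Over the X chromosome the 568 genes kept had a median difference of 0.21, against 0.01 for 13815 autosomal genes, which is 0.20 higher. Among genes that reached 6 in both libraries the X minus autosomal difference was 0.16. Over the 274 X-linked genes at or above 6 in every library the X median was only 0.06. In that gene set the medians of the autosomes other than chromosome 1 lay between -0.07 and 0.05. Over all genes kept, the X minus autosomal difference without the iPSC part was -0.01. In 5 windows of 40 Mb along the X chromosome the medians were 0.11, 0.10, 0.14, 0.43 and 0.15 in order of position. The medians without the iPSC part were -0.24, -0.05, -0.13, 0.23 and -0.22, so the window from 120 to 160 Mb alone was above 0. Xist, the RNA that silences the inactive X chromosome, had 4797, 7030.1, 4387, 4486 and 8256 normalized counts over the 5 time points, 937 in iPSCs and 992 in ESCs. Both pluripotent lines were lower than every intermediate, and Day 15 was the highest of the 7. Xist was 1.84-fold higher (1.78 to 1.90) at Day 15, and 2.58-fold higher without the iPSC part. The second fold is larger through the scaling of that setting, since Xist was low in iPSCs. Tsix, its antisense repressor, went from 89.9 to 135, but the libraries were not stranded and reads of Xist and Tsix where they overlap cannot be told apart. Rlim, an X-linked activator of Xist, went from 22628 to 13498. Of 24 X inactivation regulators kept, 2 were 2-fold higher and none lower. Hnrnpu, which tethers Xist RNA to chromatin, had 2536, 4582, 3392, 3563 and 18473 normalized counts over the 5 time points, 36005 in iPSCs and 16848 in ESCs. It was 5.18-fold higher (5.01 to 5.37), and 2.95-fold higher without the iPSC part. Eed, a Polycomb subunit, was 2.16-fold higher (2.06 to 2.25). Of the 15 genes known to escape inactivation, 2 were higher and 1 lower, and without the iPSC part 4 and 1.

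Chromosome 1 had the highest median of all the autosomes, 0.26 over 848 genes kept, while those of chromosomes 2 to 19 lay between -0.07 and 0.08. It stood 0.26 above the other autosomes and 0.07 above them without the iPSC part. The iPSC library itself differed from the ESC library in the same direction: over 462 chromosome 1 genes at or above 6 in every library, the iPSC minus ESC median was 0.59 above that of the other autosomes, and Day 13 minus ESC was 0.10 above. Hnrnpu, Hhat, Msc, Pax3 and Igfbp5 are on chromosome 1. Pax3 and Igfbp5 had no iPSC read.

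**Figure D5:**
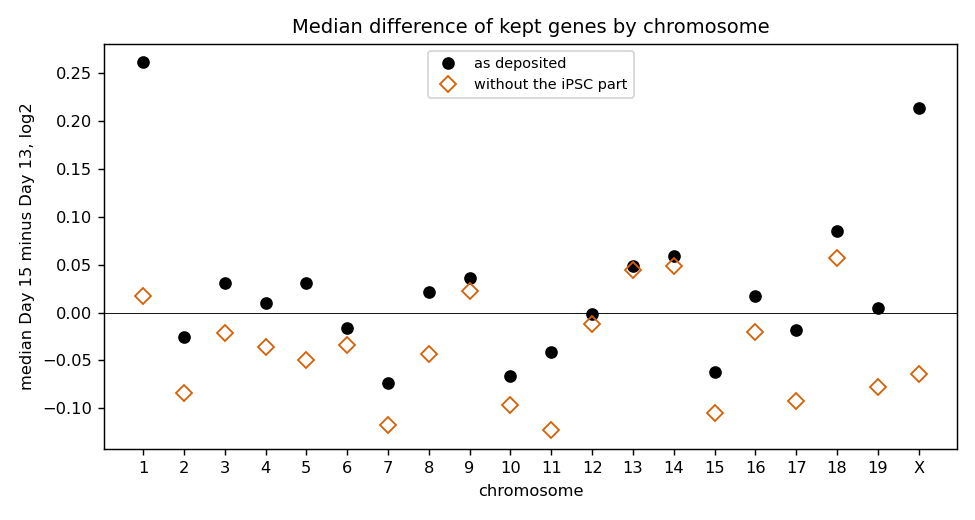
Median Day 15 minus Day 13 difference (log2) of the genes kept on each autosome and the X chromosome, as deposited (filled circles) and without the iPSC part (diamonds), 1 library each; the mitochondrial genome is not drawn. Chromosomes 1 (0.26) and X (0.21) lie highest of the 20 as deposited, and their diamonds lie among those of the other chromosomes.

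Most kept genes of the mitochondrial genome were higher. Of the 9 list members kept, 8 were 2-fold higher, with a median of 1.49 and of 1.80 without the iPSC part. Over all 16 kept genes of this genome 62.5% were 2-fold higher and 12.5% 2-fold lower, with a median of 1.27. The list member mt-Nd1 went from 66504 to 261946 normalized counts. It was 3.94-fold higher (3.91 to 3.97), and mt-Nd2, mt-Cytb and mt-Nd4 were 3.87-fold, 3.27-fold and 3.05-fold higher. The nuclear genes of the respiratory chain did not go with them: none of 41 passed 2-fold and their median was -0.06. The share of mitochondrial reads moved with this list, from 2.22% to 5.61%, and its part was not tested. Glycolysis genes were lower in 4 of 23 (17.4%), with a median of -0.65. All 23 reached 6 in both libraries, and 7.83% of all genes that did so were lower. Taking off the iPSC part left 2 of the 23 lower and a median of -0.41. Aldoc was 3.81-fold lower (3.57 to 4.07), the lactate transporter gene Slc16a3 2.46-fold lower (2.41 to 2.51), Pfkm 2.18-fold lower (2.04 to 2.33) and Pfkp 2.03-fold lower (1.98 to 2.09). None of 34 proliferation genes, 30 cholesterol and fatty acid synthesis genes or 41 ribosomal protein genes passed 2-fold in either direction. Their medians were 0.04, -0.41 and -0.35.

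The remaining lists had smaller counts. Of p53 and senescence genes 2 of 27 were higher and 6 lower, of inflammation genes 6 of 20 and 4, of endothelial genes 1 of 12 and 6, and of muscle genes 3 of 11 and 4. Among members that reached 6 in both libraries these were 5 of 14 and none for inflammation and none of 6 and 1 for endothelial genes. For p53 and senescence genes they were 1 of 25 and 5, and for muscle genes 1 of 9 and 4. Polycomb genes were higher in 5 of 31 and lower in 1 (3 and 2 without the iPSC part), KRAB and heterochromatin genes in 1 of 22 and none, and histone genes in 5 of 23 and none, though in none of the 17 that reached 6 in both libraries. Trophoblast genes were higher in 3 of 16 and lower in 4, and 2-cell-like genes in 3 of 4 and none. Among members that reached 6 in both libraries these were 2 of 14 and 3, and 1 of 2 and none. Of 32 Hox genes, 27 were not kept, and of the 5 kept 1 was higher and 3 were lower, with a median of -1.01. With the iPSC part taken off 1 was higher and 1 lower, and without a filter the median turned to 3.78, so no direction is read from this list. Serine and amino acid stress genes were higher in none of 24 and lower in 1, and the factors of the vector and their relatives in none of 6 and 1. Glycan genes of the SSEA1 pathway were higher in 2 of 14 and lower in 2. Among the 12 of them that reached 6 in both libraries, 1 was higher and 1 lower.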

How the data were processed

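RNA of 7 libraries was sequenced, and 2 of them, Day 13 and Day 15, were compared. Per the labels' protocols, lysates of every time point were stored and extracted in a single round, 500 pg of RNA went into cDNA synthesis, and the Nextera XT kit used for the libraries keeps no strand. Per the submitters' processing notes, FastQC, STAR 2.5.3a and featureCounts were used with mm10 (GRCm38.p5). The deposited values are on a log2 scale: log2 of the normalized count plus 1, with reads divided by a size factor for each library. The sources used here do not give the method of the factors. With the logarithm undone, whole reads came out for 100% of the values within 0.01 reads, and these reads gave the counting intervals.

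Values of the 2 libraries were subtracted, with no test. A gene counted as higher or lower at 4-fold, and a list member at 2-fold. Folds are ratios of normalized counts, with 95% Clopper-Pearson intervals from the reads. Against a library with 0 reads the fold was computed from 3 reads in that library and written as at least that large. Intervals and floors cover counting error only, since the reads carry no molecular identifiers. A count model on the recovered reads needs replicates and was not run. Chromosomes came from GENCODE M21, which matched 23436 of 24393 symbols. Named genes were the 15 largest folds each way with at least 256 normalized counts (leaving out Gm and Rik symbols and ribosomal pseudogenes), the 4 largest differences of each list described, and 15 fixed genes; others were chosen after their values were seen. Some members counted in the lists are not reported here by name. The members and the 40 lists were chosen with earlier results of these data known, and 3 lists and the iPSC setting after these values were seen. Scripts ran in Python 3.11.15 with numpy 2.4.6, pandas 2.3.3 and scipy 1.17.1 and were tested on simulated data.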

Additional observations from a re-analysis of the deposited data

How the results depend on the processing

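The counts of genes moved with the filter on low values. Without a filter 2859 genes were 4-fold higher, 2696 4-fold lower, 4968 2-fold higher and 4570 2-fold lower. With a filter at 8 these counts were 291, 339, 1072 and 1008, and with both libraries at or above 6 they were 162, 186, 1065 and 959. Higher genes made up 51.3% of the 4-fold calls, and between 46.2% and 53.1% under the alternatives. Without the iPSC part the X minus autosomal difference was -0.014, the chromosome 1 difference 0.071, Nanog -0.39 and Zfp42 -0.25, so the first, Nanog and Zfp42 changed sign. Of 186 named genes, 163 kept their sign and side, 12 fell under 2-fold, 4 came to pass it and 7 changed sign; besides Nanog and Zfp42 these were Esrrb (0.97 to -0.70), Prdm14 (0.07 to -0.69), Ccnd3, Eif1a and Shmt1, all 5 under 2-fold both ways. Without a filter the Hox median was 3.78, from -1.01. The pseudocount of 16, values under 3 reads set to 3, 3 other scalings and protein-coding genes alone left the 4 counts within 1.5 times and both chromosome differences above 0, and the scalings moved the median of all genes to at most 0.07. No paired analysis was possible because each group has 1 library, and no library could be left out for the same reason. Depth limits the genes with few reads: those with 0 reads have folds given as lower bounds.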
